A study of Danio rerio with 16 samples.

Results

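The genes described here are gdf9 (ENSDARG00000003229) and bmp15 (ENSDARG00000037491), which encode a pair of growth factors made by the oocyte. They were taken by identifier from a table of read counts for 31953 genes in zebrafish (Danio rerio) gonads, and make up 2 of the 21683 genes that had enough counts to be tested. Both genes were counted in all 16 libraries, with 707 to 1266 counts for gdf9 and 1303 to 2916 counts for bmp15.

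Growth differentiation factor 9 (Gdf9) and bone morphogenetic protein 15 (Bmp15) are ligands of the TGF-beta family. They are made as precursors, cleaved by proprotein convertases of the furin type, and secreted from the oocyte to the follicle cells around it. There they act through pairs of type I and type II serine/threonine kinase receptors and intracellular Smad proteins. In mammals the genes are known for their part in granulosa cell growth, and in zebrafish loss of bmp15 is known to stop follicles from maturing and to let females turn into males. The zebrafish gonad passes through a juvenile stage that holds early oocytes before it becomes an ovary or a testis. Transcripts of this pair of genes are read here for that reason as a sign of how much oocyte RNA a gonad sample holds, without an independent measure of oocytes.

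The study asked what the microRNA miR-214 does in the gonad, and whether it matters which parent was homozygous for its mutation. The line had been mutated by CRISPR-Cas9 with 2 guide RNAs, was kept beyond generation F3, and was crossed to the reporter Tg(vasa:eGFP), in which the germ cell promoter of vasa drives eGFP. The strain is given as mz 06de, tg(vasa:eGFP), and the breed as TUE. In the maternal cross a homozygous mutant mother was mated with a heterozygous father, and in the paternal cross the mother was heterozygous and the father homozygous mutant. Homozygous (KO) and heterozygous (HET) offspring of both crosses gave 4 groups of 4 libraries. Every fish therefore carried a mutated allele and had a homozygous mutant parent, and wild-type fish were not analysed here. Each library came from a pool of gonads, with 7 gonads per maternal-cross HET pool, 9 per paternal-cross HET pool, and 8 or 9 per KO pool. The age is 31 days post fertilization in the titles and 27 days in the age field. The sex of the gonads in each pool is not given.

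The libraries held 19.9 to 30.1 M (mega) counts each, and the paternal-cross HET libraries were the deepest group at 26.4 to 30.1 M. The row of the miR-214 gene (MIR214) held 0 to 4 counts per maternal-cross KO library, 3 to 9 per maternal-cross HET library, 3 to 7 per paternal-cross KO library and 0 to 2 per paternal-cross HET library. Summed over libraries this was 5 counts in KO against 19 in HET of the maternal cross, but 19 in KO against 2 in HET of the paternal cross. The 2 crosses thus ran in opposite directions, at very low counts. These libraries hold polyadenylated RNA, which lacks the mature microRNA. The row was not used to check the genotype labels, and the reason for its order was not tested. The tissue label was checked against markers. The germ cell gene ddx4 (vasa) averaged 1214 CPM (read counts scaled to a normalized library total of 1e+06) in paternal-cross KO and 1215 CPM in paternal-cross HET pools. Of 36 other oocyte-list genes found in the table, 35 were tested, and h1m stood at 0 counts in every library, for a reason that was not tested. The Leydig cell gene insl3 had 38 counts over all 16 libraries. Markers of gut, pancreas and liver were present as well, and their sum reached 5667 CPM in maternal-cross KO replicate 4.

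Relative to the library total, gdf9 fell by 20.9% from HET to KO gonads of the paternal cross and the pools of that cross did not overlap; relative to the oocyte-list total, its difference was 0.02 on the log2 scale. Its level was 30.3, 32.7, 32.5 and 28.1 CPM in the paternal-cross KO pools and 35.6, 34.7, 41.8 and 44.1 CPM in the paternal-cross HET pools. All 4 KO pools lay below the lowest HET pool, with 32.7 CPM as the highest KO and 34.7 CPM as the lowest HET value. In this comparison 23.2% of all tested genes had an edgeR adjusted p under 0.05. How many of all genes had pools that did not overlap was not counted. The maternal-cross KO pools had 33.4, 36.5, 33.6 and 29.2 CPM of gdf9, and the maternal-cross HET pools 39.3, 32.3, 29.6 and 41.7 CPM. These groups overlapped, and the HET pools included both a value near the lowest KO pool and the highest value of the cross.

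bmp15 had the same order of groups, and its difference in the paternal cross was a fall of 32.4% relative to the library total. Relative to the oocyte-list total its difference was -0.21 on the log2 scale and did not pass the threshold. Its level was 66.9, 58.9, 66.0 and 49.2 CPM in the paternal-cross KO pools and 75.0, 81.4, 98.5 and 102 CPM in the paternal-cross HET pools. Here too all 4 KO pools lay below all 4 HET pools, with no count of such genes among all tested genes to set beside it. The maternal-cross KO pools had 67.4, 79.8, 79.6 and 61.3 CPM of bmp15, and the maternal-cross HET pools 84.6, 68.9, 53.5 and 83.1 CPM. The maternal-cross HET pools spanned the whole range of the maternal-cross KO pools.

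**Figure D1:**
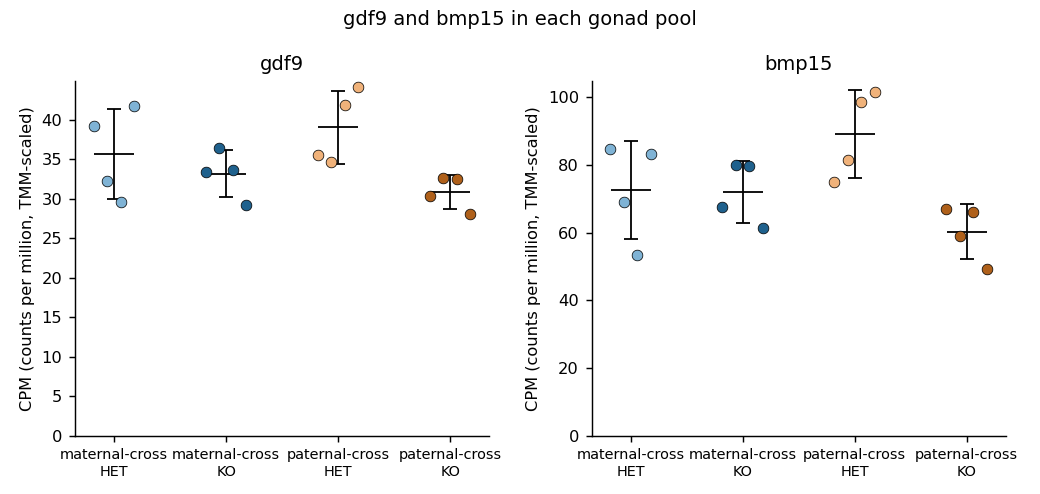
Level of gdf9 (left) and bmp15 (right) in each of 16 gonad pools, in CPM scaled by TMM, with 1 point per library and the mean and SD of each group of 4 as lines. For both genes the paternal-cross KO pools lie below all paternal-cross HET pools, and the maternal-cross groups overlap. How many other genes separate in this way was not counted.

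Ranked by mean level, gdf9 was highest in paternal-cross HET at 39.0 ± 4.65 CPM (SD, n = 4). It was followed by maternal-cross HET at 35.7 ± 5.72 CPM, maternal-cross KO at 33.2 ± 2.98 CPM and paternal-cross KO at 30.9 ± 2.17 CPM (SD, n = 4 each). bmp15 followed the same order, with 89.1 ± 13.0 CPM in paternal-cross HET, 72.5 ± 14.5 CPM in maternal-cross HET, 72.1 ± 9.20 CPM in maternal-cross KO and 60.2 ± 8.19 CPM in paternal-cross KO (SD, n = 4 each). No pair of neighbours in this order differed past the threshold for either gene. For gdf9 the edgeR adjusted p was 0.460, 0.877 and 0.718 from the top of the order to its bottom, and for bmp15 it was 0.205, 0.995 and 0.418. The ends of the order, both in the paternal cross, were apart beyond the spread between pools. Over all 16 libraries gdf9 varied with a coefficient of variation of 13.9% and bmp15 with 20.1%, and the highest pool exceeded the lowest by a factor of 1.57 for gdf9 and 2.07 for bmp15.

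In the paternal cross the log2 fold change of gdf9, KO minus HET, was -0.34 (SE 0.11, 95% interval -0.58 to -0.10, edgeR adjusted p = 0.0397). That of bmp15 was -0.57 (SE 0.15, 95% interval -0.87 to -0.26, edgeR adjusted p = 0.0164). Both genes thus passed the threshold of 0.05 in a comparison in which 23.2% of all tested genes passed it and 9.14% were lower in KO. Ordered by p-value, bmp15 was gene 1633 and gdf9 gene 4198 of 21683, so many genes differed more clearly than either. Of the 5034 genes past the threshold, 3052 were higher and 1982 lower, upper-quartile scaling gave 3577 higher and 1101 lower, and the oocyte-list total as library size, added after seeing the data, 8439 higher and 42 lower. The 5034 became 3084, 1286 and 2728 without paternal-cross HET replicates 2, 3 and 4, and 3259, 3263 and 1026 without paternal-cross KO replicates 1, 2 and 4. Since the pools are mixtures, fewer oocytes and less RNA per oocyte cannot be told apart in these values. The call of gdf9 was lost under upper-quartile scaling (-0.26, edgeR adjusted p = 0.0619) and in 5 of 16 fits that left out 1 library, and that of bmp15 in 2 of 16. Those 5 fits left out paternal-cross HET replicate 3 or 4 or paternal-cross KO replicate 1, 2 or 4 (edgeR adjusted p 0.0558 to 0.124), and for bmp15 they were the fits without paternal-cross HET replicate 3 (0.0578) and without paternal-cross KO replicate 4 (0.0654).

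In the maternal cross 0 of the 2 genes passed the threshold, where 0.198% of all tested genes did. The log2 fold change was -0.11 for gdf9 (SE 0.11, 95% interval -0.34 to 0.13, edgeR adjusted p = 0.877). For bmp15 it was -0.01 (SE 0.15, 95% interval -0.32 to 0.30, edgeR adjusted p = 0.995), with the sign turning to 0.0019 under upper-quartile scaling. The bmp15 interval leaves room for a change of 0.30 in either direction. It does not include the paternal-cross estimate of -0.57, but it overlaps the 95% interval of that estimate (-0.87 to -0.26).

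The difference between the crosses was tested directly. The KO effect in the maternal minus that in the paternal cross was 0.56 for bmp15 (SE 0.21, 95% interval 0.12 to 0.99), with an unadjusted p of 0.0153 and an edgeR adjusted p of 0.194. For gdf9 it was 0.23 (SE 0.16, 95% interval -0.10 to 0.57, edgeR adjusted p = 0.437). The crosses were thus not shown to differ in their effect on either gene, in a comparison where 0.189% of all tested genes passed. Averaged over both crosses, the KO effect was -0.22 for gdf9 (SE 0.08, edgeR adjusted p = 0.0687) and -0.29 for bmp15 (SE 0.10, edgeR adjusted p = 0.0697), and 12.2% of all tested genes passed. Both averages passed without maternal-cross HET replicate 3 (edgeR adjusted p = 0.0153 and 0.0113) and without paternal-cross HET replicate 1 (0.0497 and 0.0426), and that of gdf9 also without maternal-cross KO replicate 2 (0.0480). Between the crosses, 0 of the 2 genes passed among KO pools, where 1.59% of all genes did, and 0 among HET pools, where 3.92% did. The largest of these 4 differences was the lower bmp15 in maternal-cross than in paternal-cross HET pools, at -0.30 (SE 0.15, 95% interval -0.61 to 0.01, edgeR adjusted p = 0.205). The comparisons share groups, so their values are not independent of each other.

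**Figure D2:**
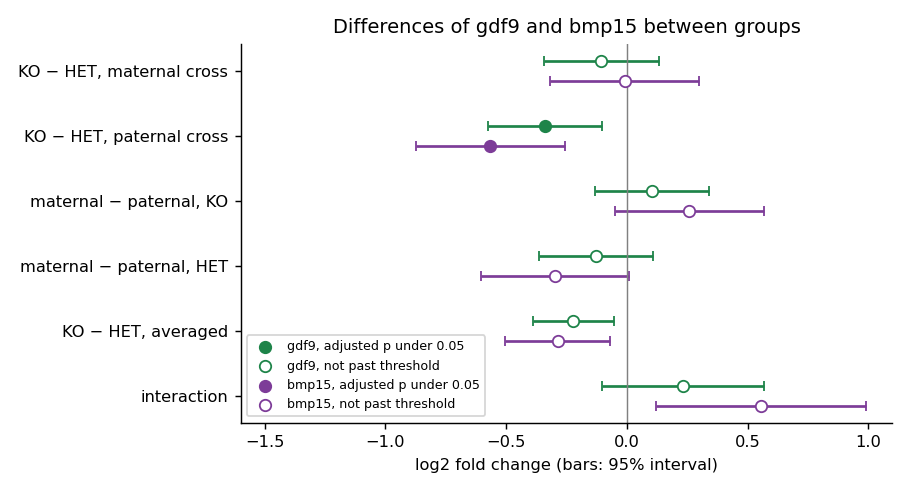
Log2 fold change of gdf9 and bmp15 in 6 comparisons, with 95% intervals as bars and filled points where the edgeR adjusted p was under 0.05. The paternal-cross KO minus HET values of -0.34 and -0.57 are the ones past the threshold. When the oocyte-list total was the library size, gdf9 there turned to 0.02 and bmp15 was -0.21, neither past the threshold.

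gdf9 and bmp15 varied together from pool to pool. Over the 16 libraries their log2 CPM correlated with Pearson's r = 0.916 and Spearman's rho = 0.929 (permutation test with 100000 draws, p = 1.0e-05 for each, the smallest they can give; adjusted over 11 relations 3.7e-05 and 2.8e-05). Without paternal-cross HET replicates 3 and 4, which had the gdf9 levels farthest from the median, r was 0.861. After the group means were subtracted r was 0.886 (permutation within groups, p = 5.8e-04, adjusted p = 0.00638). The relation was therefore present between pools of the same genotype and cross as well. Both values of a library share its total and its scaling, so their errors are not independent.

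**Figure D3:**
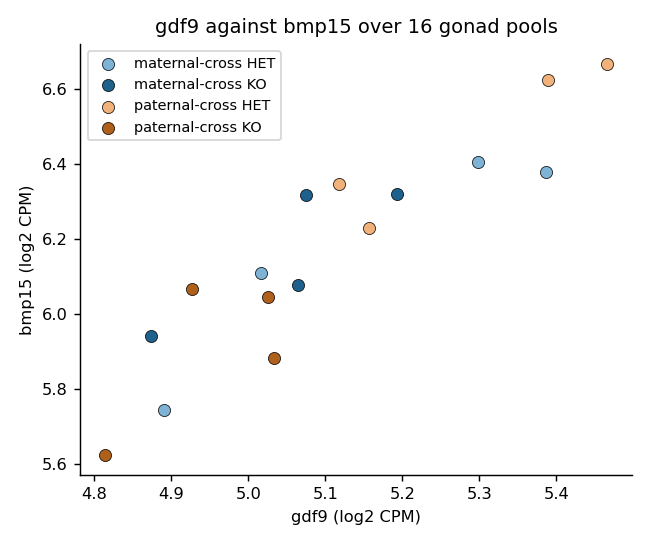
Level of bmp15 against that of gdf9 in 16 gonad pools, both in log2 CPM, with 1 point per library coloured by group. Pools high in one gene are high in the other, from paternal-cross KO replicate 4 at the lower left to paternal-cross HET replicate 4 at the upper right (Pearson's r = 0.916).

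The ratio of bmp15 to gdf9 counts does not depend on library scaling, and is compared here between libraries only, since transcript length was not taken into account. It was 2.21, 1.80, 2.03 and 1.75 in the paternal-cross KO pools and between 2.11 and 2.36 in the paternal-cross HET pools. Paternal-cross KO replicate 1 lay above the lowest HET pool, so these groups overlapped. The maternal-cross pools gave 2.02 to 2.37 in KO and 1.81 to 2.16 in HET, so here the KO mean (2.17 ± 0.150) was above the HET mean (2.02 ± 0.160; SD, n = 4 each). In the paternal cross the order was the other way, with 1.95 ± 0.210 in KO and 2.28 ± 0.116 in HET (SD, n = 4 each). Over all libraries the ratio had a coefficient of variation of 9.34%, less than that of the level of either gene. No test was made of the ratio.

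The list of other oocyte genes holds egg coat proteins (zona pellucida genes), regulators of oocyte growth such as figla and buc, and maternal mRNAs. Of its 35 tested genes other than gdf9 and bmp15, 25 were lower in paternal-cross KO, 0 were higher and 10 did not pass. Among all genes 9.14% were lower. Taking the total of the same list as library size sets their sum equal by construction. With it 3 were lower and 1 was higher in that cross, beside 42 lower and 8439 higher of all 21683 genes. The count of 25 was 11 without paternal-cross HET replicate 2, 6 without HET replicate 3, and 13, 15 and 4 without paternal-cross KO replicates 1, 2 and 4. The median log2 fold change was -0.35, beside 0.02 for all tested genes, and all 35 estimates were negative; the median was 0.01 with the list total as library size. The list was chosen with results of these data known.

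The largest falls in the paternal cross were those of btg4 (-0.77, SE 0.18, edgeR adjusted p = 0.0113) and cth1 (-0.71, SE 0.14, edgeR adjusted p = 0.00744). btg4 encodes an adaptor of mRNA deadenylation at the oocyte to embryo transition, and cth1 a zinc finger protein. They were followed by ca15b at -0.68 and by mos, the kinase of meiotic arrest, at -0.61. The cyclin gene ccnb1 (-0.54), the egg coat gene zp3d.2 (-0.52), the maternal transcription factor gene nanog (-0.52) and the DNA methyltransferase gene dnmt1 (-0.49) also fell. The bmp15 value of -0.57 lay among these largest falls of the list, further from 0 than the list median of -0.35. The gdf9 value of -0.34 was close to that median. The transcription factor gene figla, needed for early follicles, fell by 0.37 on the log2 scale (191.4 against 246.5 CPM). The egg coat gene zp3b did not pass the threshold at -0.25 (edgeR adjusted p = 0.0908). Between maternal-cross KO and HET pools 0 of the 35 genes passed, where 0.198% of all tested genes did. The median was -0.19 with 34 of 35 estimates negative, beside 10949 of all 21683 genes. That median turned to 0.08 with the oocyte-list total as library size. Averaged over both crosses, 26 of the 35 were lower in KO and 0 were higher (median -0.27). Of all tested genes, 877 were lower and 1776 higher in that average. For the KO effect in the maternal minus that in the paternal cross, 0 of the 35 passed (median 0.18). With 0.189% of all tested genes past the threshold there, this count is near the background. The crosses were thus not shown to differ in their effect on these genes.

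The counts of the 2 genes were also set against the counts of this list instead of the library total. The list took 3.41% to 3.90% of all counts in paternal-cross KO and 4.02% to 4.50% in paternal-cross HET pools, with no overlap. No count of all tested genes that separate in this way was made to set beside it. The list took 3.34% to 3.98% of counts in maternal-cross KO and 3.81% to 4.23% in maternal-cross HET pools, which overlapped. On a scale like CPM, but relative to the list total in place of the library total, gdf9 had 822 to 956 in paternal-cross KO (890 ± 56.1) and 684 to 1067 in paternal-cross HET (880 ± 157; SD, n = 4 each). bmp15 had 1588 to 1933 (1728 ± 147) and 1606 to 2458 (2002 ± 365; SD, n = 4 each). On this scale the KO and HET ranges overlapped for both genes. With the list total as library size, an alternative added after seeing the data, the median of all tested genes in the paternal cross moved to 0.38. The gdf9 difference was then 0.02 (edgeR adjusted p = 0.914) and that of bmp15 -0.21 (edgeR adjusted p = 0.175), so neither passed. For the maternal cross the same scale moved the median of all genes to 0.25 and gave 0.16 for gdf9 and 0.26 for bmp15, neither past the threshold.

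The most abundant germ cell genes that are not in the oocyte list did not pass the threshold. The paternal-cross difference was -0.00 for ddx4 (SE 0.08, edgeR adjusted p = 0.992) and 0.09 for piwil1, of the piRNA pathway (SE 0.09, edgeR adjusted p = 0.485). Of 11 germ cell genes tested, 5 were lower and 0 higher in KO with a median of -0.18, beside 9.14% lower and 14.1% higher among all genes, though 5 were higher and 1 lower with the oocyte-list total as library size. ca15b and dazl, which are among the 5, also stand in the oocyte list. The estimates of 10 of the 11 genes were negative, beside 10497 of all 21683 genes, and those of 4 with the oocyte-list total as library size. Summed, the germ cell list had 4583 to 4964 CPM in paternal-cross KO and 5065 to 5547 CPM in paternal-cross HET pools. These ranges did not overlap, with no count of such genes among all tested genes. The sum holds ca15b and dazl and was not computed without them. Per 1000 counts of ddx4, gdf9 had 22.5 to 27.5 counts in paternal-cross KO and 26.1 to 39.1 in paternal-cross HET pools, and bmp15 had 39.4 to 57.6 and 55.0 to 90.5. Both ranges overlapped at their ends. The means were 25.5 ± 2.13 in KO and 32.7 ± 7.02 in HET for gdf9 (SD, n = 4 each). For bmp15 they were 49.8 ± 8.49 and 74.8 ± 18.2 (SD, n = 4 each). These differences were not tested on this scale.

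Marker lists of other cell types were counted in the same paternal-cross comparison, in which 14.1% of all tested genes were higher and 9.14% lower; their median was 0.02. Of 12 testis somatic genes 8 were higher in KO pools and 0 were lower (median 0.85). Of its most abundant genes, gsdf rose by 1.11, while cyp17a1 (0.19) and hsd11b2 (0.26) did not pass. Of 12 ovarian somatic genes 4 were higher, 0 lower and 8 did not pass, with a median of 0.48. The progesterone receptor gene pgr (0.60) and the steroid dehydrogenase gene hsd3b1 (2.08) were higher, while hsd17b1 (-0.38) did not pass. The aromatase gene cyp19a1, which makes oestrogen in follicle cells, had 7.42 against 7.36 CPM (0.01, edgeR adjusted p = 0.968). Of 8 leukocyte genes 7 were higher (median 1.36), among them cd74a (1.24), lcp1 (1.37) and coro1a (0.94), and of 3 vessel genes kdrl (0.66), cdh5 (0.79) and fli1 (0.80) were all higher. Summed over each list, paternal-cross KO against HET pools had 665 to 1010 against 479 to 583 CPM for testis somatic genes, 86.2 to 124 against 59.5 to 80.1 CPM for ovarian somatic genes and 313 to 551 against 143 to 243 CPM for leukocyte genes. None of these ranges overlapped. The sums of the germ cell, spermatid and vessel lists did not overlap either. Those of the meiosis, erythrocyte, muscle, and gut, pancreas and liver lists did. How many of all genes separated in this way was not counted. The part of these cells in the fall of gdf9 and bmp15 was not tested.

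Across the 16 pools both genes were low where the somatic lists were high. The summed ovarian somatic list correlated with bmp15 at r = -0.905 and rho = -0.921, and with gdf9 at r = -0.830 and rho = -0.859 (permutation test, adjusted p 3.7e-05 and 2.9e-04 for r). Within groups these were -0.855 (adjusted p = 0.00913, permutation) and -0.756 (adjusted p = 0.0164, permutation). The testis somatic list gave r = -0.880 with bmp15 and -0.807 with gdf9, and -0.773 and -0.661 within groups (adjusted p 0.0164 and 0.0205, permutation). The abundant gene gsdf weighs heavily in the testis list sum, and the relation was not computed without it. Leukocyte genes gave -0.869 with bmp15 and -0.801 with gdf9, and within groups -0.753 (adjusted p = 0.0164, permutation) and -0.631 (adjusted p = 0.0507, permutation). The relations to somatic lists thus held within groups for bmp15, and for gdf9 the leukocyte relation did not pass there. CPM values are shares of a library total, so shares of different cell types in a mixed pool tend to run against each other. The permutation tests do not allow for this. Among 21682 genes, 159 had r of -0.9 or lower with bmp15 and 88 with gdf9.

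The summed level of the other oocyte genes, in which the abundant egg coat genes weigh most, was set against both genes in the same way. Over all pools it gave r = 0.715 and rho = 0.812 for bmp15 and r = 0.729 and rho = 0.782 for gdf9. Within groups it was 0.609 for bmp15 (adjusted p = 0.042, permutation) and 0.533 for gdf9 (adjusted p = 0.0693, permutation). With the germ cell list r was 0.623 for bmp15 and 0.634 for gdf9, and within groups 0.300 and 0.312 (adjusted p = 0.336 for both, permutation). That list shares ca15b and dazl with the oocyte list. Without the 2 pools farthest in the member's level, r stayed between 0.639 and 0.938 in absolute value over the 10 relations to lists. All values of a library share its scaling.

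**Figure D4:**
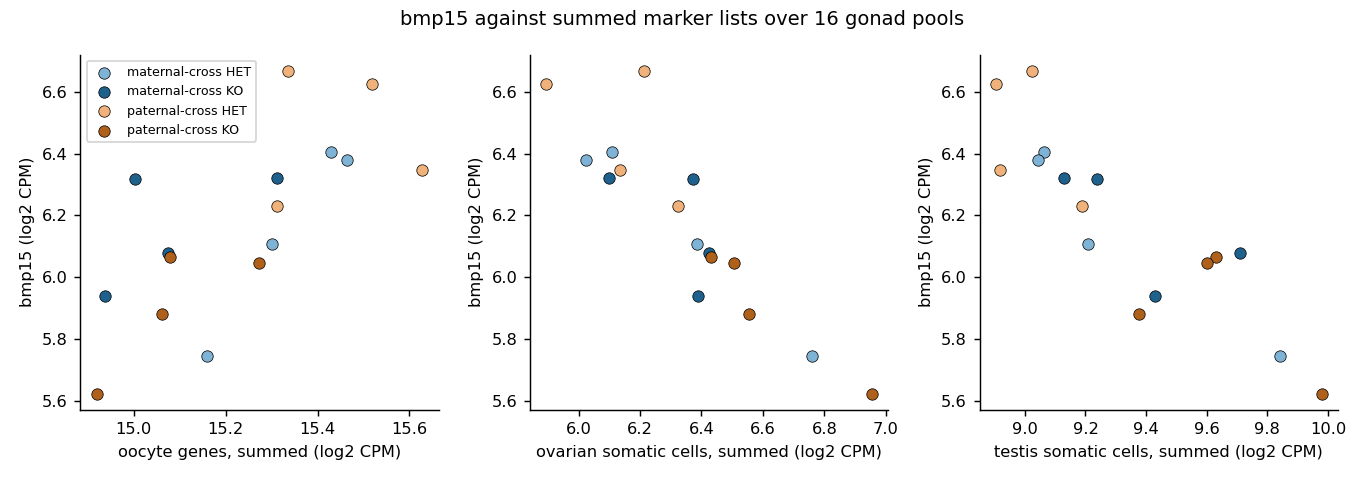
Level of bmp15 (log2 CPM) against the summed level (log2 CPM) of the other oocyte genes, the ovarian somatic genes and the testis somatic genes in 16 gonad pools, coloured by group. bmp15 is higher in pools with more oocyte-list RNA (r = 0.715). It is lower in pools with more RNA of the ovarian (r = -0.905) or testis (r = -0.880) somatic list. The gene gsdf weighs heavily in the testis list sum. CPM values are shares of a library total, so the axes are not independent of each other.

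The genes whose level followed that of gdf9 most closely over the 16 libraries were pfkfb1 (Pearson's r = 0.969), RDH10 (0.968), SH3YL1 (0.962), RAB35 (0.961), TMEM53 (0.959), PPP4C (0.958), atf1 (0.957), si:ch211-202f5.3 (0.955), ASAH1 (0.954) and SNX10 (0.952). In all, 300 genes reached r of at least 0.9, and bmp15 ranked 159th among 21682. Those that ran most strongly against gdf9 were PCDH1 (-0.950), atp1a3a (-0.939), SLC38A10 (-0.938), jag1b (-0.937), FAT2 (-0.935), LAMB2 (-0.933), si:ch211-126j24.1 (-0.931), ABCA2 (-0.930), plxnd1 (-0.930) and si:cabz01069012.2 (-0.930).

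For bmp15 the closest were the mitotic kinase genes aurka (0.987) and NEK2 (0.985), then st3gal8 (0.974), RFTN2 (0.972), eif1axa (0.970), rragca (0.969), YPEL3 (0.969), tpcn3 (0.968), ATF7 (0.966) and FAM76B (0.966). bmp15 had 469 genes at r of at least 0.9, among which gdf9 ranked 316th. Those running most against it were ACHE (-0.954), abcc3 (-0.947), LAMB2 (-0.946), colgalt2b (-0.946), SOCS7 (-0.945), si:ch211-59d8.1 (-0.943), RASA3 (-0.942), DHRS13 (-0.942), mhc1zaa (-0.941) and LAMB1 (-0.940). The laminin beta gene LAMB2 stood at the low end for both growth factors. None of these genes belongs to the oocyte list, whose tested genes had a median r of 0.825 with gdf9 and 0.775 with bmp15. In the paternal cross aurka had 143.8 CPM in the KO and 210.4 CPM in the HET pools (-0.55, SE 0.14, edgeR adjusted p = 0.0143). ACHE, the acetylcholinesterase gene, had 10.1 and 4.42 CPM (1.20, SE 0.28, edgeR adjusted p = 0.0121). Since these genes were chosen for their likeness over the same libraries, their differences are a description.

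Among the other ligands of the TGF-beta family the paternal-cross differences mostly ran against those of gdf9 and bmp15. Of 21 other ligand genes tested, 10 were higher in KO and 1 was lower, with a median of 0.51, beside 14.1% higher and 9.14% lower among all genes. With the oocyte-list total as library size 13 were higher and 0 lower, beside 8439 higher and 42 lower of all 21683 genes. The largest rises were those of an activin beta A gene, inhba (ENSDARG00000024759, 2.88), of amh, the anti-Müllerian hormone gene (2.31, SE 0.62, edgeR adjusted p = 0.0189; 32.9 against 6.66 CPM), and of an activin beta B gene, inhbb (ENSDARG00000040777, 1.74). bmp2 (ENSDARG00000013409, 1.18), gsdf, the gonadal soma derived factor gene of the series title (1.11, SE 0.26, edgeR adjusted p = 0.0125; 330.1 against 152.7 CPM), tgfb1b (0.98), the other inhba copy (ENSDARG00000012671, 0.94) and tgfb1a (0.83) were also higher. The 1 lower ligand gene was gdf3, the zebrafish vg1 gene with a known maternal transcript (-0.45, SE 0.09, edgeR adjusted p = 0.00831; 475.9 against 650.7 CPM), named after its value was seen. amh and gsdf also stand in the testis somatic list. The sum of that list averaged 811 CPM in paternal-cross KO and 517 CPM in paternal-cross HET pools, so gsdf was a large part of it.

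Of 19 receptor genes tested, 5 were higher in paternal-cross KO and 0 were lower, with a median of 0.04, beside 14.1% higher, 9.14% lower and a median of 0.02 among all genes. They were the type II receptor genes tgfbr2 (ENSDARG00000059363, 1.29) and bmpr2 (ENSDARG00000020057, 1.04), the type I receptor genes tgfbr1 (ENSDARG00000042259, 0.92) and bmpr1bb (0.61), and the co-receptor gene tgfbr3 (0.78). In mammals BMPR2, with a type I partner of the activin receptor-like kinases, is known as the receptor of GDF9 and BMP15. The second bmpr2 copy (ENSDARG00000011941) was at 0.29 (edgeR adjusted p = 0.0902), and bmpr1ba was at -0.11 (edgeR adjusted p = 0.401).

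Among 11 Smad genes, 6 were higher and 2 lower in paternal-cross KO, with a median of 0.71, beside the same shares of all genes. The inhibitory smad6 copies (ENSDARG00000031763, 1.16; ENSDARG00000053209, 0.78), the smad3 copies (ENSDARG00000036096, 0.96; ENSDARG00000010207, 0.71), smad9 (0.80) and smad1 (0.73) were higher. The lower ones were smad5, which transmits BMP signals (-0.38; 148.8 against 193.3 CPM), and smad2, which transmits activin and TGF-beta signals (-0.37; 114.4 against 147.4 CPM). Upper-quartile scaling gave 6 higher and 1 lower. The oocyte-list total as library size gave 9 higher and 0 lower, beside 8439 higher and 42 lower of all 21683 genes.

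Of 16 inhibitor and processing genes tested, 3 were higher in paternal-cross KO and 0 lower, with a median of -0.01 that turned to 0.07 under upper-quartile scaling; with 14.1% of all genes higher, this count is near the background. The 3 were both fstl1 copies (ENSDARG00000015559, 1.39; ENSDARG00000039576, 0.67) and a follistatin gene, fst (ENSDARG00000057992, 1.07), whose product binds activins. The convertase gene furin (ENSDARG00000062909) stood at -0.23 (edgeR adjusted p = 0.140). Of 9 target genes 2 were higher and 0 lower, also near the background of 14.1% higher, with a median of 0.22. They were id1, a classical target of BMP signalling (1.18, SE 0.27, edgeR adjusted p = 0.0121; 60.7 against 26.9 CPM), and skilb (1.07), while id3 was at -0.00 (edgeR adjusted p = 0.998). Between maternal-cross KO and HET pools 0 genes of any of these lists passed, where 0.198% of all tested genes did. For the interaction 0 passed as well, where 0.189% of all tested genes did.

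**Figure D5:**
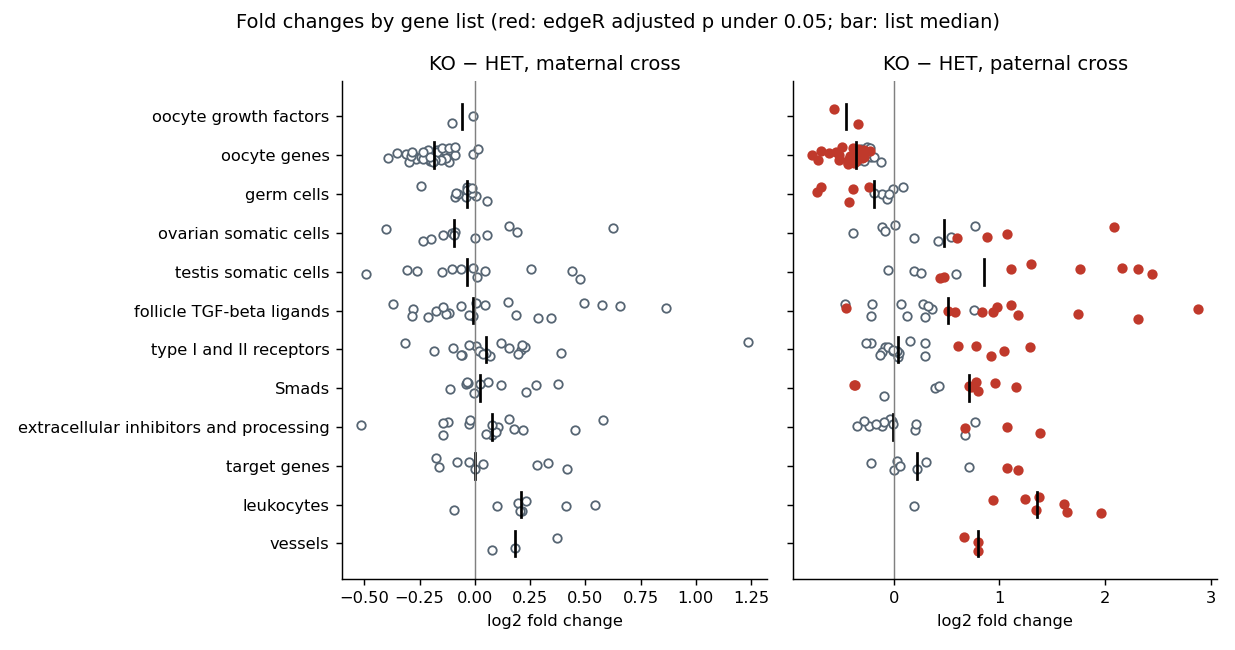
Log2 fold change, KO minus HET, of the genes of 12 lists in the maternal (left) and paternal (right) cross, with 1 point per tested gene, red where the edgeR adjusted p was under 0.05, and a bar at the list median; the x axes of the panels differ. In the paternal cross the oocyte genes lie left of 0 (median -0.35, turning to 0.01 with the oocyte-list total as library size) with gdf9 and bmp15, and the medians of the somatic, leukocyte and vessel lists lie right of it.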

How the data were processed

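The authors deposited 1 table of raw read counts per Ensembl gene for 16 stranded, polyadenylated RNA libraries, made from 193 ng RNA with 13 PCR cycles and sequenced on 1 flow cell with 84 cycles per read, per the labels' protocols. The submitters' processing notes name STAR 2.4.1d, featureCounts 1.4.6, DESeq2 and the genome build danRer10; whether counting used the strand is not given in the sources used here. Overlapping or near-identical genes are uncertain for that reason. The labels give no batch, and every count column carries the title of its sample.

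Genes with low counts were removed (filterByExpr, minimum count 10), which left 21683 of 31953. Counts were scaled by TMM and tested with edgeR 4.0.16 (R 4.3.3), with 1 mean per group over all 16 libraries (quasi-likelihood F test). The threshold was a Benjamini-Hochberg adjusted p of 0.05 over all tested genes. Levels are CPM on the TMM-scaled total, and correlations use log2 CPM with a prior count of 2. Correlations were tested with 100000 permutations over 11 relations. Standard errors were derived from the log2 fold change and its F statistic.

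Symbols came from a name table that covered 26121 identifiers. Of 213 symbols in the lists, 139 were found as such, 58 through the shared symbol of a gene family, whose copies were all taken, and 16 were not found. Genes were named if they were gdf9 or bmp15, the 10 most and least correlated with each, up to 8 past the threshold per pathway list by size of change, or the 3 most abundant of other lists; other genes were named to characterise a list after their values were seen. The members and lists were chosen with earlier results of these data known. The model was also run on simulated counts in which a small set of genes changed, as many up as down. That run does not cover a shift like that of the paternal cross, so it does not test the choice of scaling.

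All replicate pairs differed by more than sampling noise (chi-square per degree of freedom 6.46 to 52.6 over 24 pairs). The series' design text calls the libraries biological replicates. Alternatives were other scalings, filters, DESeq2 1.42.0, fits of the compared groups only, a replicate block and leaving out each library.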

Additional observations from a re-analysis of the deposited data

How the results depend on the processing

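In the paternal cross bmp15 stayed past the threshold in every alternative that kept all 16 libraries except the oocyte-list total as library size. gdf9 did not pass there under upper-quartile scaling (-0.26, edgeR adjusted p = 0.0619) or the replicate block (-0.34, edgeR adjusted p = 0.0725). With the oocyte-list total as library size, chosen after seeing the data, the paternal-cross values were 0.017 for gdf9 and -0.21 for bmp15, the maternal-cross values 0.16 and 0.26, and the averaged values 0.088 and 0.024. Upper-quartile scaling turned bmp15 in the maternal cross to 0.0019. DESeq2 took the averaged KO effect past the threshold for gdf9 (-0.24, adjusted p = 0.0332) and bmp15 (-0.31, adjusted p = 0.0326). The causes of these changes were not tested.

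Same-numbered libraries did not deviate together: the correlation of their deviations averaged -0.247 between KO and HET of the maternal cross and 0.0345 in the paternal cross, and 0 and 3 of 8 libraries correlated best with their own number. The replicate block kept bmp15 past the threshold (-0.57 in the paternal cross, adjusted p = 0.0377, edgeR) and changed the counts of genes past the threshold to 21 in the maternal cross, 134 between crosses among KO, 345 among HET, 857 for the average and 13 for the interaction.

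These counts were 43, 344, 851, 2653 and 41 with the main settings. DESeq2 gave 209, 837, 2055, 4416 and 637. Fits of only the compared groups gave 4 in the maternal cross and 193 between crosses among HET. The interaction count was 70 with no filter, 16 with the stronger filter and 19 under upper-quartile scaling. In the paternal cross 25 oocyte-list genes were lower with the main settings, and 3 were lower and 1 higher with the oocyte-list total as library size.

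Leaving out 1 library at a time gave log2 fold changes in the paternal cross of -0.39 to -0.28 for gdf9 and -0.64 to -0.48 for bmp15. In the maternal cross they were -0.19 to -0.02 and -0.14 to 0.073, with 4 fits turning the sign of bmp15. For the average they were -0.27 to -0.18 and -0.35 to -0.25, with 3 and 2 fits past the threshold. Counts ranged from 19 to 131 in the maternal and 1026 to 6084 in the paternal cross, 109 to 495 and 146 to 1991 between crosses among KO and HET, 538 to 6092 for the average and 14 to 181 for the interaction. The oocyte-list count ranged from 4 to 31.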

Other observations

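Markers of gut, pancreas and liver, organs next to the gonad, were uneven between pools. Summed over the 8 tested genes they reached 81.8 to 5667 CPM in maternal-cross KO and 55.7 to 412 CPM in maternal-cross HET pools. In the paternal cross they reached 24.5 to 138 CPM in KO and 16.0 to 55.2 CPM in HET pools. KO against HET gave 0 calls among these 8 genes in either cross, where 0.198% (maternal) and 23.2% (paternal) of all tested genes passed. Between the crosses among KO pools 3 of the 8 were higher in the maternal cross (median log2 difference 4.63, 1.59% of all genes past the threshold). The maternal-cross KO sums were 1180 and 5667 CPM in replicates 3 and 4, but 81.8 and 147 CPM in replicates 1 and 2. Averaged over both crosses 3 of the 8 were higher in KO (median 2.46, 12.2% of all genes past the threshold). Of 6 muscle genes 0 passed in the paternal cross, and of 5 erythrocyte genes 1 was higher in paternal-cross KO, beside 14.1% higher and 9.14% lower among all genes. Their part in the levels of gdf9 and bmp15 was not tested.

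Of 12 meiosis genes 1, msh5, was higher in paternal-cross KO (0.78, edgeR adjusted p = 0.0357), below the 14.1% of all genes that were higher, with a list median of 0.26. With the oocyte-list total as library size 8 of the 12 were higher (median 0.64), beside 8439 of all 21683 genes. The abundant synaptonemal complex gene sycp1 was at 0.24 (edgeR adjusted p = 0.480). Of 8 spermatid genes 2 were lower with a median of -0.10, beside 9.14% lower among all genes. The 2 were spata18 (-0.78, edgeR adjusted p = 0.0106) and ropn1l (-0.53, edgeR adjusted p = 0.0248). When the oocyte-list total was the library size, 0 of the 8 were lower with a median of 0.26, beside 42 lower of all 21683 genes. msh5 and ropn1l were named after their values were seen.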
